A study of Mus musculus with 14 samples.

Results

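Transcript levels of 8 enzymes of cholesterol synthesis were followed from granule cell precursors to medulloblastoma in the mouse cerebellum. In pathway order these are Hmgcs1, Idi1, Fdps, Fdft1, Sqle, Lss, Cyp51 and Nsdhl. They are a chosen subset of the enzymes of the route that the array's probe annotation names, out of 8251 genes named by a single symbol, and all of their probe sets were used, 13 of the 12422 on the array that are not controls. A probe set is a group of short probes read out as 1 intensity. Fdps has 4 probe sets, Nsdhl has 3 and each of the other 6 genes has 1.

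RNA came from 3 groups of samples, 1 array each, and the labels describe the mice of all of them as patched heterozygotes or patched mutants, from a colony kept by breeding to 129X1/SvJ. Patched (Ptch1) is the receptor that restrains hedgehog signalling. The group GCP (n = 4) is granule cell precursors, the dividing cells that form cerebellar granule neurons, from mice aged 7 days and labelled patched+/-. The group pretumor (n = 5) is preneoplastic cells from mutants aged 6 weeks, and the group tumor (n = 5) is cells from mutants of 10 to 25 weeks with signs of medulloblastoma, a cerebellar tumor. Crosses named Math1-GFP/patched+/- are also described, but not as the source of the arrayed cells. No wild-type group was analysed here, and the age of the mice and the stage of the disease cannot be told apart. Cerebellar tissue was digested with papain and DNase, and the cells collected between 35% and 65% Percoll were frozen without sorting. The labels do not say whether an array holds 1 animal or several, so the p-values measure only how far these samples scatter, and that scatter may be technical in part.

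Cholesterol is built from acetyl-CoA. The early enzymes make mevalonate and turn it into isoprene units, which are joined to farnesyl diphosphate, the branch point between sterols and the lipids that anchor proteins in membranes. Squalene is then formed, oxidised and closed into lanosterol, and the late enzymes trim lanosterol to cholesterol. The genes are switched together by the SREBP factors, which are released to the nucleus when membranes hold little sterol. In the young brain cholesterol is largely made in place, and sterols also bear on hedgehog signalling, since the signal transducer Smoothened binds them.

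The promoters of 4 of the 8 genes (Hmgcs1, Idi1, Lss and Cyp51) were matched by symbol to RefSeq sequence of the build GRCm38.p6. The reference used held none for Fdps, Fdft1 and Sqle. Nsdhl, though called lower against GCP, was set aside before the search, so the motif counts below do not cover it. Shown here are the 250 bases before the annotated start of the earliest enzyme, Hmgcs1 (chr13:119690101-119690350, plus strand), and of Idi1 (chr13:8885356-8885605, plus strand), since these are the matched genes that were called lower against GCP. Each runs 5′ to 3′ and ends at the base before the start, and capitals mark matches on either strand to 3 motifs, which are the sterol regulatory element type TCACNCCAC, the CCAAT box CCAAT and the GC box GGGCGG.
Hmgcs1: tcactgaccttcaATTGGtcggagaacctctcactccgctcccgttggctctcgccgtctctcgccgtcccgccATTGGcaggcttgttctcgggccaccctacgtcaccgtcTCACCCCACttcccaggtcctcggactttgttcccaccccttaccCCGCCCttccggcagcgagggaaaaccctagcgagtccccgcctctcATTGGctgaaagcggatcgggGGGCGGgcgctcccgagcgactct
Idi1: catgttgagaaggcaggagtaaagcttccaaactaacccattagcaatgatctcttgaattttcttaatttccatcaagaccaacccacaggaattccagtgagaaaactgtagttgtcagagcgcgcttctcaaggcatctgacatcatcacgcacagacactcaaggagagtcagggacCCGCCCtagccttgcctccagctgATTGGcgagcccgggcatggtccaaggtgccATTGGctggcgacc

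TCACNCCAC was found in 1 of the 4 promoters, that of Hmgcs1, where TCACCCCAC begins at -137, counting the base before the start as -1. The same letters lie in 1.05% of 32851 promoter windows of this length. CCAAT was found in 4 of 4, against 33.8% of all windows, and GGGCGG in 4 of 4, against 32.7%. No matches to different motifs overlapped. A match is a run of letters in this window and not a measured binding site.

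All values below are log2 of the deposited intensities, with group means ± SD. An intensity under 16, or 4 on the log2 scale, is said to lie in the low band, which holds 70.5% of all values on the arrays. A fold against a group mean in that band is given against 16, as "at least". Among precursor markers, Zic1 had a mean of 12.74 ± 0.11 (SD, n = 4) in GCP, and of 12.59 ± 0.16 (n = 5) and 12.64 ± 0.21 (n = 5) in pretumor and tumor, while Atoh1, a defining marker, was in the low band on all 14 arrays. Pax6 fell 3.35-fold in pretumor and 4.70-fold in tumor against GCP (limma adjusted p = 0.0108 and 0.00214). Neurod1 fell 2.59-fold and 2.38-fold (adjusted p = 0.00706 and 0.0109). Of the 7 measured precursor markers, these 2 were called lower and 0 were called higher in each later group. Of all genes, 3.25% were called lower and 1.99% higher in pretumor, and 3.93% and 1.70% in tumor. Within GCP, arrays 1 and 2 correlated at 0.998 over all probe sets and arrays 3 and 4 at 0.998, against 0.994 to 0.996 across these pairs, so results are also given with parts of the GCP group left out. In this bulk RNA, fewer cells of a type and less RNA per cell cannot be told apart.

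The cholesterol enzymes stood lower in pretumor and in tumor cells than in precursors. The 8 genes were chosen with earlier results of these data known, so the counts below describe them and are no independent test. Of the 10 member probe sets above the low band, all 10 had a lower mean in pretumor than in GCP and all 10 had a lower mean in tumor than in GCP. In pretumor minus GCP, 7 of the 13 were called lower and 0 higher (limma, Benjamini-Hochberg adjusted p under 0.05), beside 2.69% of all probe sets called lower and 1.67% called higher. They belong to 5 genes, Hmgcs1, Idi1, Fdps, Fdft1 and Nsdhl, and counted with 1 probe set per gene the background was 3.25%. In tumor minus GCP, 8 of the 13 were called lower and 0 higher, in the same 5 genes, beside 3.19% of all probe sets called lower, 1.41% called higher, and 3.93% lower with 1 probe set per gene. The median difference over the 13 was -0.92 in pretumor and -1.06 in tumor, where the median of all probe sets was -0.0052 and 0.0024. These backgrounds include probe sets in the low band. When only the 3828 probe sets above that band were tested, 468 were called in pretumor minus GCP, in either direction. In tumor minus GCP 508 were called. Of the 10 members, 9 and 10 were among them, all lower. The median of all probe sets above the band was -0.0234 and -0.00202. How many of these had a lower mean was not counted.

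Both comparisons use the same 4 GCP arrays and are therefore not independent. With GCP 1 and GCP 2 averaged, and GCP 3 and GCP 4 averaged, 4 of the 13 were called lower in pretumor and 5 in tumor. Without GCP 1 and GCP 2 the counts were also 4 and 5, and without GCP 3 and GCP 4 they were 6 and 8. Groups did not overlap for 9 of the 13 in pretumor minus GCP, beside 5.48% of all probe sets, and for 9 in tumor minus GCP, beside 4.73%. The 3 member probe sets in the low band on every array are 2 of Fdps and that of Lss, and Lss is among the 9 in tumor.

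**Figure D1:**
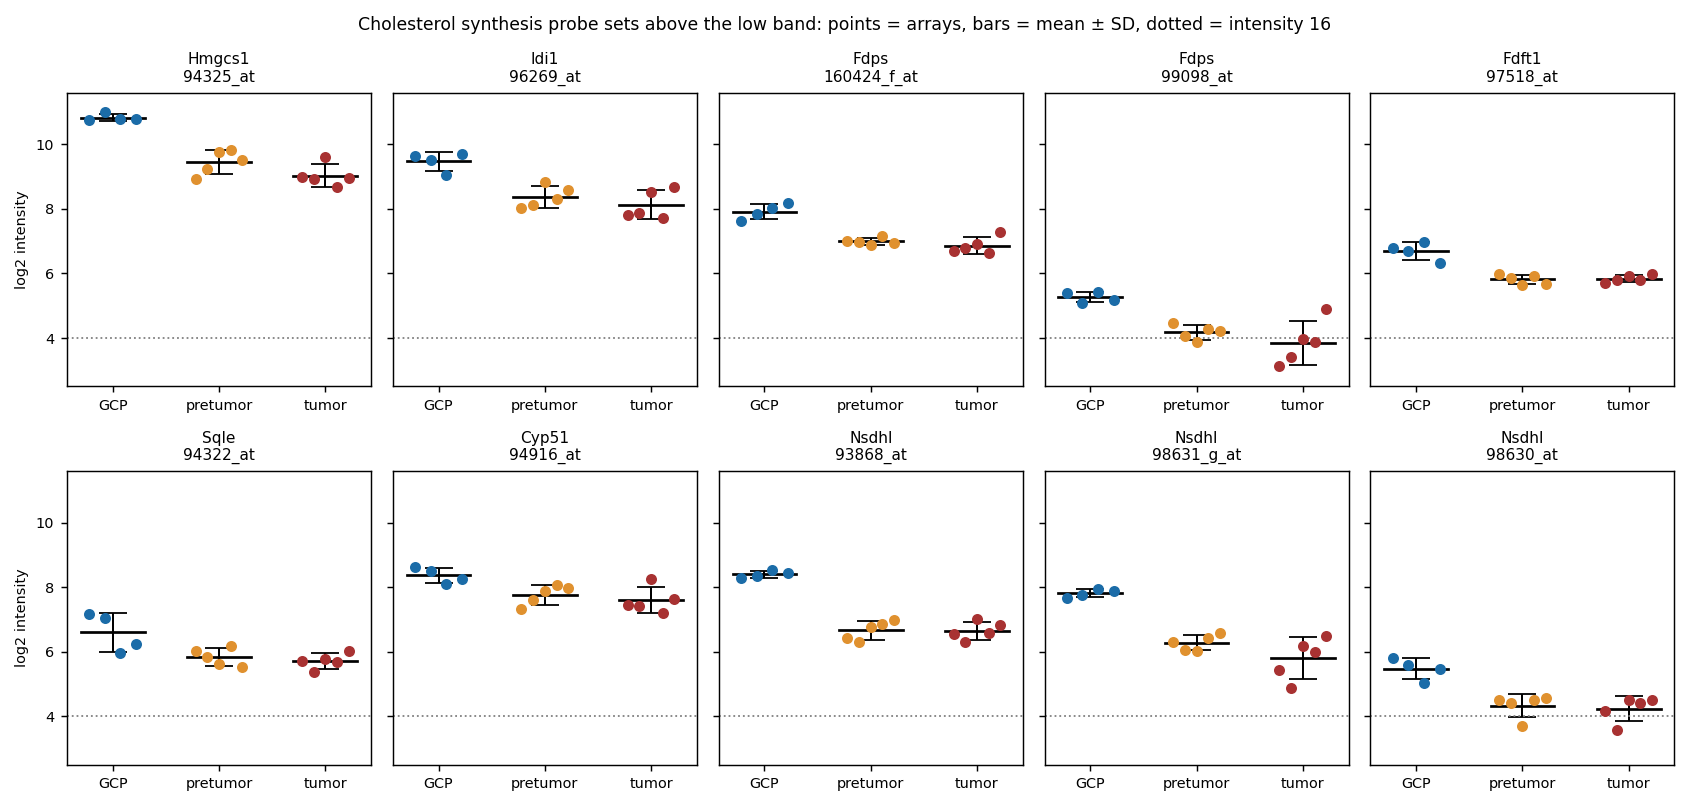
Log2 intensity of the member probe sets above the low band, with 1 point per array, bars at the group mean ± SD and a dotted line at an intensity of 16, for GCP (n = 4), pretumor (n = 5) and tumor (n = 5). The GCP arrays lie above all other arrays in most panels, and in the panel of Sqle the array GCP 3 lies inside the range of the pretumor arrays.

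Hmgcs1, which condenses acetyl-CoA and acetoacetyl-CoA to HMG-CoA, fell at the head of the pathway. The GCP arrays read 10.75, 11.01, 10.79 and 10.77, the pretumor arrays 8.93, 9.24, 9.76, 9.83 and 9.51, and the tumor arrays 8.99, 8.92, 9.61, 8.67 and 8.97. Every GCP array was above every other array, and the pretumor and tumor arrays overlapped. The difference was -1.38 in pretumor (95% confidence interval -1.82 to -0.93, 2.60-fold lower, limma adjusted p = 0.00258). It was -1.80 in tumor (-2.24 to -1.36, 3.48-fold lower, adjusted p = 0.000326). Both calls held in each of the 26 alternative settings tried.

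Idi1, the isomerase that interconverts the isoprene building blocks, was measured at 9.63, 9.51, 9.06 and 9.71 in GCP. Pretumor arrays read 8.02, 8.13, 8.82, 8.30 and 8.58, and tumor arrays 7.81, 7.89, 8.52, 7.71 and 8.69. GCP 3 was the lowest GCP array and still lay above all 10 others. Idi1 fell 2.15-fold in pretumor (difference -1.11, limma adjusted p = 0.0212) and 2.56-fold in tumor (difference -1.35, adjusted p = 0.00659). The pretumor call was lost on leaving out 1 array: without GCP 1, GCP 2, GCP 4 or pretumor 2 the adjusted p was 0.0618, 0.0583, 0.0728 or 0.0569. It was also lost with a floor at 16 (adjusted p = 0.0523) and with the GCP arrays averaged in pairs (adjusted p = 0.14), and the tumor call was lost with that averaging (adjusted p = 0.0616) and without GCP 1 and GCP 2 (adjusted p = 0.0822). The pretumor call was lost as well without GCP 1 and GCP 2 (adjusted p = 0.164) and without GCP 3 and GCP 4 (adjusted p = 0.102).

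Fdps makes farnesyl diphosphate. Its probe set 160424_f_at read 7.64, 7.84, 8.03 and 8.17 in GCP, 7.01, 6.96, 6.89, 7.16 and 6.96 in pretumor, and 6.70, 6.78, 6.91, 6.62 and 7.29 in tumor. GCP did not overlap either later group, and the 5 pretumor arrays lay close together with an SD of 0.10. The fall was 1.90-fold in pretumor (difference -0.92, limma adjusted p = 0.00248) and 2.08-fold in tumor (difference -1.06, adjusted p = 0.000768). The suffix f marks probes that can match several related sequences, so this reading is less certain as to the gene.

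A further Fdps probe set, 99098_at, carries no such mark. It read 5.38, 5.08, 5.43 and 5.19 in GCP, 4.47, 4.05, 3.86, 4.29 and 4.20 in pretumor, and 3.14, 3.40, 3.96, 3.87 and 4.90 in tumor. GCP arrays were the highest, and 1 pretumor and 4 tumor arrays lay in the low band. The tumor difference of -1.42 was called (at least 2.41-fold lower, limma adjusted p = 0.0139), though not with only GCP and tumor in the fit (adjusted p = 0.0772) or with the GCP arrays averaged in pairs (adjusted p = 0.136). This call was also lost without GCP 1 and GCP 2 (adjusted p = 0.092) and without GCP 3 and GCP 4 (adjusted p = 0.149). The pretumor difference of -1.09 was not (adjusted p = 0.0523), and it was called in 8 of the 26 alternatives. The last pair of Fdps probe sets, 162281_at and 162217_r_at, stayed at or below 2.34 on all 14 arrays and were not called.

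Fdft1, squalene synthase, takes farnesyl diphosphate into the sterol branch. It read 6.78, 6.69, 6.99 and 6.34 in GCP, 6.00, 5.85, 5.66, 5.91 and 5.67 in pretumor, and 5.69, 5.80, 5.91, 5.81 and 5.99 in tumor. All GCP arrays were the highest, and the 10 later arrays spanned 5.66 to 6.00. Fdft1 fell 1.84-fold in pretumor (difference -0.88, 95% confidence interval -1.14 to -0.62, limma adjusted p = 0.00145) and 1.81-fold in tumor (difference -0.86, adjusted p = 0.00128). Both calls held in each alternative tried.

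Sqle, squalene epoxidase, performs the first oxygen-dependent step. It read 7.17, 7.06, 5.95 and 6.24 in GCP, 6.01, 5.84, 5.61, 6.18 and 5.52 in pretumor, and 5.71, 5.36, 5.78, 5.68 and 6.02 in tumor. GCP 1 and GCP 2 lay far above all later arrays, whereas GCP 3 lay within both later groups. The differences, -0.77 in pretumor (limma adjusted p = 0.119) and -0.89 in tumor (adjusted p = 0.0678), were not called. Without GCP 3 they were called, at -0.99 (adjusted p = 0.0433) and -1.11 (adjusted p = 0.0224). They were also called when only probe sets above the low band were tested (adjusted p = 0.0496 and 0.0225). Each difference was called in only 3 of the 26 alternatives. Over these the pretumor difference ran from -1.28 to -0.26 (limma adjusted p up to 0.716). The tumor difference ran from -1.40 to -0.38 (adjusted p up to 0.484). GCP 3 and GCP 4 alone averaged 6.10 for Sqle, beside 5.83 in pretumor and 5.71 in tumor. Lss, lanosterol synthase, was in the low band on all 14 arrays, between 1.69 and 1.97, and gave no call.

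Cyp51, the lanosterol demethylase, read 8.62, 8.49, 8.09 and 8.26 in GCP, 7.31, 7.61, 7.88, 8.08 and 7.97 in pretumor, and 7.46, 7.41, 8.26, 7.20 and 7.63 in tumor. GCP 3 lay only just above pretumor 4, and tumor 3 reached the GCP range. Neither the difference of -0.60 in pretumor (limma adjusted p = 0.173) nor that of -0.77 in tumor (adjusted p = 0.0677) was called. Without tumor 3 the tumor difference was -0.94 and was called (adjusted p = 0.0097). It was also called with each array centred on the median of its log2 values above 4 (adjusted p = 0.031). The third call came when only probe sets above the low band were tested (adjusted p = 0.0243). The tumor difference was thus called in 3 of the 26 alternatives, over which it ran from -0.96 to -0.58 (limma adjusted p up to 0.418). The pretumor difference was called in 0 of the 26 and ran from -0.79 to -0.40 (adjusted p up to 0.636).

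Nsdhl, the dehydrogenase that acts in removing methyl groups from the sterol ring, had 3 probe sets above the low band. Probe set 93868_at read 8.28, 8.34, 8.53 and 8.45 in GCP, 6.43, 6.29, 6.76, 6.86 and 7.00 in pretumor, and 6.54, 6.30, 7.02, 6.58 and 6.83 in tumor. The GCP arrays stood apart by more than 1 log2 unit from the nearest later array. The difference was -1.73 in pretumor (95% confidence interval -2.09 to -1.38, limma adjusted p = 0.000143) and -1.74 in tumor (3.35-fold lower, adjusted p = 8.44e-05).

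Probe set 98631_g_at of Nsdhl read 7.68, 7.77, 7.95 and 7.89 in GCP, 6.31, 6.07, 6.03, 6.43 and 6.59 in pretumor, and 5.44, 4.88, 6.19, 6.00 and 6.49 in tumor. Groups did not overlap against GCP, and tumor 1 and tumor 2 were the lowest of all arrays. It fell 2.90-fold in pretumor (limma adjusted p = 0.00776) and 4.06-fold in tumor (adjusted p = 0.00115). The pretumor call was lost with the GCP arrays averaged in pairs (adjusted p = 0.0921), without GCP 1 and GCP 2 (adjusted p = 0.0525) and without GCP 3 and GCP 4 (adjusted p = 0.112).

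The dimmest Nsdhl probe set, 98630_at, read 5.82, 5.58, 5.03 and 5.47 in GCP, 4.49, 4.41, 3.71, 4.50 and 4.57 in pretumor, and 4.15, 3.59, 4.49, 4.40 and 4.52 in tumor. GCP was again the highest, and pretumor 3 and tumor 2 were in the low band. It fell 2.21-fold in pretumor (limma adjusted p = 0.0165) and 2.37-fold in tumor (adjusted p = 0.00967). The pretumor call was lost without GCP 1 (adjusted p = 0.0538) or without GCP 2 (adjusted p = 0.0516), and both calls were lost with the GCP arrays averaged in pairs (adjusted p = 0.118 and 0.0801). Both were also lost without GCP 1 and GCP 2 together (adjusted p = 0.167 and 0.129). The 3 Nsdhl probe sets thus gave falls of different size in the same direction.

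**Figure D2:**
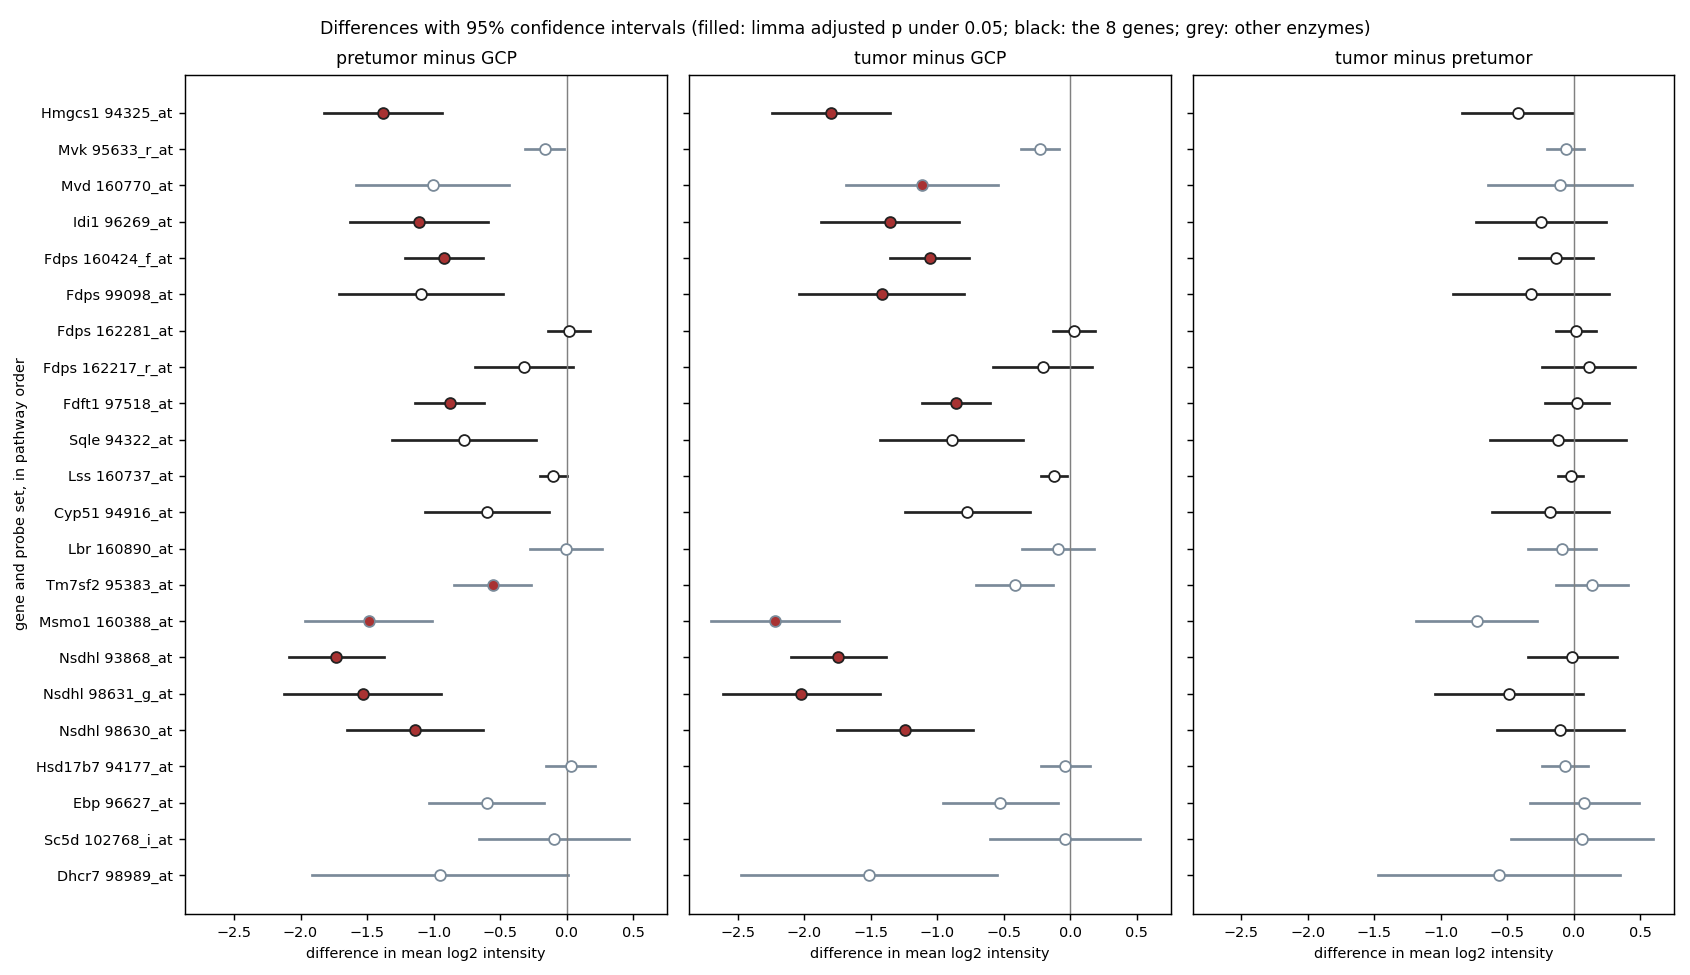
Difference in mean log2 intensity in the 3 comparisons for the 13 member probe sets (black) and for 9 other enzymes of the route (grey), in pathway order, with 95% confidence intervals; filled points are called. Against GCP the 10 member differences above the low band run from -1.73 to -0.60 in pretumor and from -2.02 to -0.77 in tumor, while those of tumor minus pretumor have intervals within -1.05 to 0.39, and the 2 Fdps probe sets in the low band and Lss lie between -0.32 and 0.11.

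Between pretumor and tumor, no member probe set was called (limma), beside 0.998% of all probe sets called in either direction. At an unadjusted p under 0.05 there was 1, Hmgcs1, with a difference of -0.42 (95% confidence interval -0.84 to -0.0038, adjusted p = 0.433). Of the 10 probe sets above the low band, 9 had a lower mean in tumor. The order of the group means was therefore GCP, pretumor, tumor for these 9, but pretumor and tumor did not differ beyond their spread. The intervals bound what these arrays could show. For Fdft1 the difference was 0.02 (-0.22 to 0.26), for the 160424_f_at probe set of Fdps -0.14 (-0.41 to 0.14), and for 93868_at of Nsdhl -0.01 (-0.35 to 0.33). The lowest bound was that of Nsdhl 98631_g_at, at -0.49 (-1.05 to 0.07).

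The members were also unequal among tumors. Tumor 3 was above its group mean for 10 of the 10 probe sets and tumor 5 for 9, and tumor 5 was the highest tumor array for 7 of them and tumor 3 for the other 3. Tumor 2 was below the mean for all 10, and tumor 1 was above it for 1. Averaged over the 10 probe sets, the deviation from the group mean ran from -0.34 in tumor 2 to 0.36 in tumor 5. In pretumor it ran from -0.12 in pretumor 2 to 0.18 in pretumor 4, and in GCP from -0.10 to 0.09. Nsdhl enters this mean with 3 probe sets and Fdps with 2. With 1 probe set per gene over all 8 genes, and each gene centred over the 14 arrays, tumor 3 was the highest tumor array at -0.07, tumor 5 next at -0.15, and tumor 4 the lowest at -0.56, with tumor 2 at -0.52. These are descriptions of single arrays, and the 10 probe sets on an array share its RNA.

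**Figure D3:**
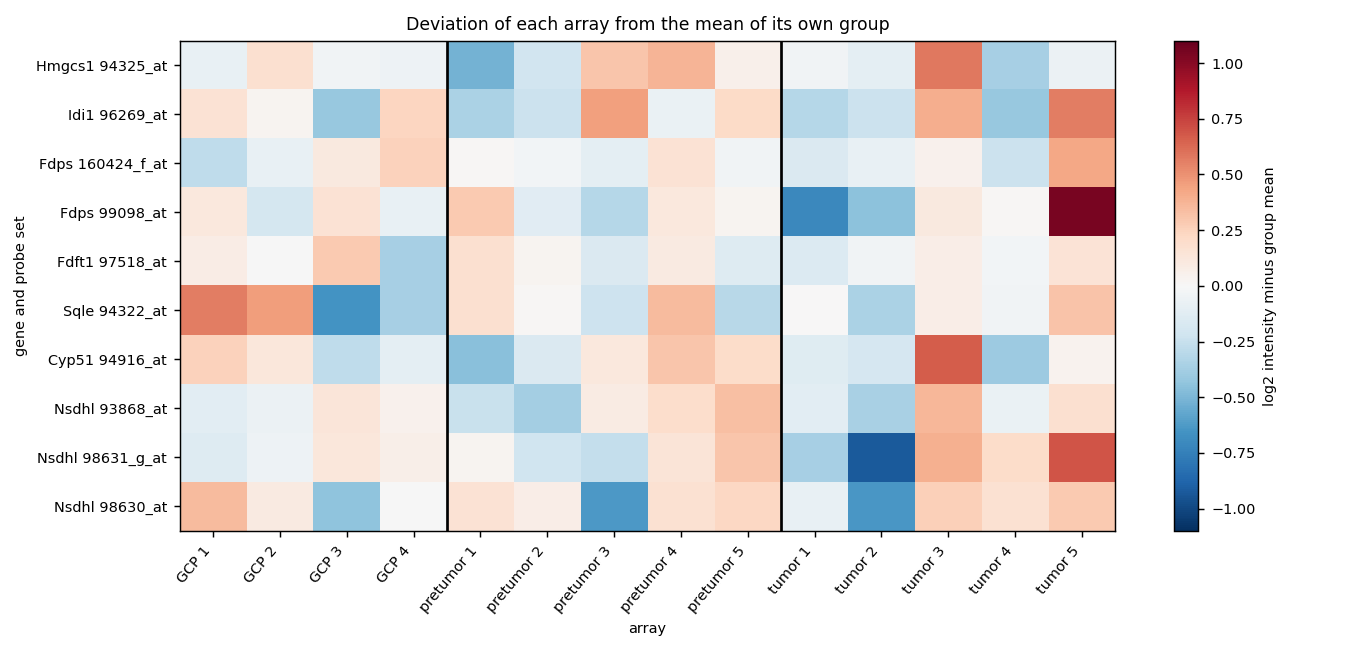
Heat map of log2 intensity minus the mean of the array's own group, with the 14 arrays as columns and the 10 member probe sets above the low band as rows (red above, blue below the group mean). The columns of tumor 3 and tumor 5 are red for 10 and 9 of the rows, that of tumor 2 is blue for all, and in the row of Sqle the arrays GCP 1 and GCP 2 are red and GCP 3 and GCP 4 blue.

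Within GCP, the mean of arrays 1 and 2 exceeded that of arrays 3 and 4 by 1.02 for Sqle, and for the other 9 probe sets this gap was 0.07 to 0.45 in size, in either direction. The log2 ratio of the 3' to the 5' control probe set of Gapdh, a reading of RNA integrity, was 0.46 in GCP 1, 0.56 in GCP 2, and -0.018 in each of the other GCP arrays. It ran from 0.0056 to 1.09 in pretumor and from 0.15 to 0.42 in tumor. The same ratio of Actb did not part the GCP arrays in this way, at 4.03 and 4.27 in GCP 1 and GCP 2 and at 3.96 and 4.18 in GCP 3 and GCP 4. The part of RNA integrity in the Sqle values was not tested.

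The remaining enzymes of the route were taken as a list of 13, of which 9 were measured and 3 of those (Mvk, Mvd and Hsd17b7) had every group mean in the low band. With 1 probe set per gene, 2 of the 9 were called lower and 0 higher in pretumor minus GCP (of all genes 3.25% were called lower and 1.99% higher), and 2 lower and 0 higher in tumor minus GCP (3.93% and 1.70%). Msmo1, the methylsterol monooxygenase that works on the same methyl groups as Nsdhl, read 7.82, 7.90, 8.07 and 8.71 in GCP, 6.38, 6.55, 6.53, 7.01 and 6.68 in pretumor, and 5.64, 5.60, 6.48, 5.71 and 6.08 in tumor. Its groups did not overlap against GCP, and it fell 2.81-fold in pretumor (limma adjusted p = 0.00258) and 4.66-fold in tumor (adjusted p = 0.000116). Tumor minus pretumor was -0.73 (95% confidence interval -1.18 to -0.28) and was not called (adjusted p = 0.16). As for the members, tumor 3 and tumor 5 were the highest tumor arrays for Msmo1.

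Tm7sf2, a sterol reductase, fell from 4.54 ± 0.07 in GCP to 3.99 ± 0.28 in pretumor (at least 1.46-fold, limma adjusted p = 0.0357), and its tumor mean was 4.12 ± 0.18 (adjusted p = 0.114). The pretumor call of Tm7sf2 held in 15 of 26 alternatives. Mvd, which makes isopentenyl diphosphate, was called lower in tumor (difference -1.11, adjusted p = 0.0328) with every group mean in the low band, so no fold is given, and this call held in 14 of 25. The other late enzymes are named for their roles, after their values were seen. Lbr, which shares its reductase activity with Tm7sf2 and is also a nuclear envelope protein, had means of 9.25 in GCP, 9.25 in pretumor and 9.16 in tumor, and its pretumor difference had a 95% confidence interval of -0.28 to 0.27. Ebp, the sterol isomerase, differed by -0.60 (adjusted p = 0.133) and -0.53 (adjusted p = 0.203). For Sc5d, the desaturase, the differences were -0.10 (adjusted p = 0.959) and -0.04 (adjusted p = 1.0). Dhcr7, which makes cholesterol from its direct precursor, had -0.95 (adjusted p = 0.332) and -1.51 (adjusted p = 0.082). Among the late enzymes, then, Nsdhl, Msmo1 and Tm7sf2 were called in pretumor, while the intervals of Lbr and Sc5d spanned 0.

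Genes around the route gave few calls. Among 9 measured of 16 genes of sterol sensing and uptake, 6 had all group means in the low band. In pretumor minus GCP, 1 was called higher (1.99% of all genes were) and 0 lower. That gene was Npc1, which carries cholesterol out of lysosomes. It read 6.86 to 7.08 in GCP, 7.28 to 7.79 in pretumor and 6.57 to 6.94 in tumor, so that pretumor lay above both other groups. Npc1 rose 1.40-fold from GCP to pretumor (limma adjusted p = 0.0302) and was 1.59-fold lower in tumor than in pretumor (adjusted p = 0.011; 0.957% of all genes were called lower and 0.133% higher in that comparison). The first of these calls held in 15 of 26 alternatives and the second in 22 of 24. Srebf1, which encodes SREBP factors that act chiefly on fatty acid genes, had means of 6.32 ± 0.45, 7.60 ± 0.67 and 7.68 ± 1.42, and its differences of 1.28 (adjusted p = 0.367) and 1.36 (adjusted p = 0.333) were not called. Tumor 3 read 5.26 for Srebf1, and the other tumor arrays 7.91 to 9.00. Insig1, a sterol-sensing retention factor and itself a target of the SREBP factors, lay in the low band on all 14 arrays. Both are named after their values were seen.

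Of 7 measured of 12 export and storage genes, 4 had all group means in the low band and Lcat was the 1 called. It was called lower in tumor against GCP (3.93% of all genes were) and against pretumor (0.957%). Lcat, which esterifies cholesterol on lipoproteins, had means of 5.25 ± 0.47, 6.39 ± 0.51 and 3.95 ± 0.39 in GCP, pretumor and tumor, and was lower in tumor by at least 2.37-fold against GCP (limma adjusted p = 0.0285) and at least 5.23-fold against pretumor (adjusted p = 0.00136), calls that held in 14 of 26 and 24 of 24 alternatives. Of the enzymes that use isoprenoids outside the sterol route, 5 of 10 were measured and 0 were called in any comparison by limma, and the number with an unadjusted p under 0.05 was 0 for pretumor and 2 for tumor against GCP, and 1 between the later groups. Rabggtb, a subunit of the transferase that prenylates Rab proteins and the member of this list with the highest mean, stood at 8.75, 9.01 and 9.38 (adjusted p = 0.596 and 0.0771 against GCP).

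Fatty acid synthesis, the sister pathway under SREBP control, was represented by 8 of 11 genes. In pretumor minus GCP 0 of 8 were called and 2 had an unadjusted p under 0.05 (limma), with a median difference of -0.02 beside -0.90 for the 8 cholesterol genes. Fasn, the fatty acid synthase, averaged 8.36, 8.47 and 8.43 in the 3 groups. In tumor minus GCP 2 of the 8 were called lower, beside 3.93% of all genes. These were Scd2, a desaturase (1.80-fold, limma adjusted p = 0.0127), and Scd1, whose values lay in the low band. In tumor minus pretumor Scd1 was again called lower (0.957% of all genes were), and Acly, which supplies cytosolic acetyl-CoA to both pathways, was called higher by 0.29 (adjusted p = 0.0286; 0.133% of all genes were called higher), a call that held in 10 of 24 alternatives. Whether the 2 pathways differ was not tested.

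**Figure D4:**
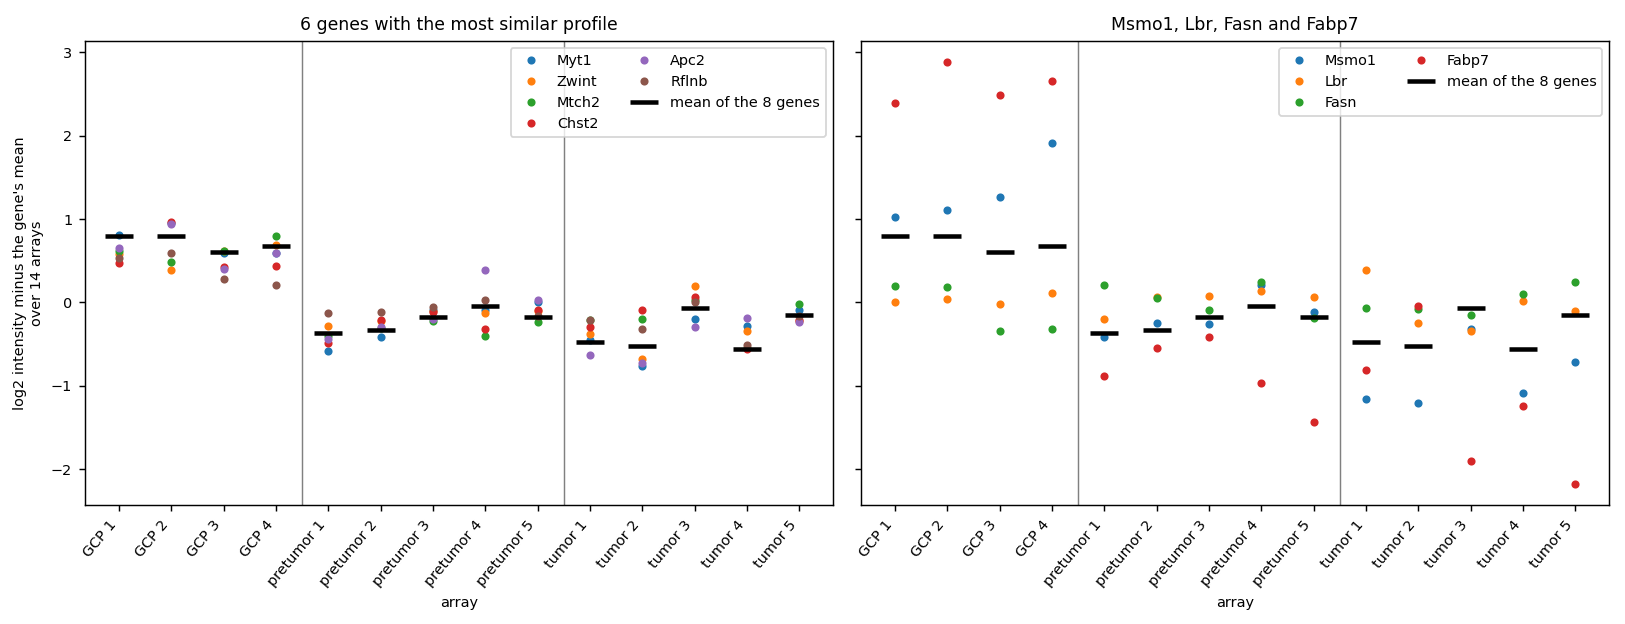
Log2 intensity of each array minus the gene's mean over the 14 arrays, with 1 point per gene and array and a black dash at the mean of the 8 cholesterol genes; the left panel holds the 6 genes of most similar profile, the right panel Msmo1, Lbr, Fasn and Fabp7. The black dash steps down between GCP and pretumor, from 0.61 or more on the GCP arrays to -0.04 or less on all later arrays.

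Signals of other cell types moved with the same groups. The 7 measured markers of astrocytes and Bergmann glia had a summed intensity of 9330 to 12900 on GCP arrays, 1160 to 1850 on pretumor arrays and 440 to 1870 on tumor arrays, most of it from Fabp7. Of the 7, 1 was called lower in pretumor (3.25% of all genes were) and 4 in tumor (3.93%). Aldoc, called higher in pretumor (1.99% of all genes were) and lower in tumor, had every group mean in the low band, and Slc1a2 was in it on all arrays. Fabp7 fell 11.0-fold in pretumor (limma adjusted p = 0.000389) and 14.3-fold in tumor (adjusted p = 0.000108). The 7 measured endothelial and pericyte markers summed to 80.7 to 115 in GCP, 39.4 to 55.8 in pretumor and 24.6 to 38.0 in tumor, with 5 of them in the low band throughout. Of these 7, 4 were called lower in pretumor (3.25% of all genes were) and 5 in tumor (3.93%), and 0 higher. The 7 measured precursor markers summed to 16700 to 20600, 10000 to 14500 and 10900 to 16600. Of these, Pax6 and Neurod1 were called lower in both later groups (3.25% and 3.93% of all genes were). The 8 microglial markers summed to 133 to 356 in GCP, 788 to 1340 in pretumor and 614 to 1870 in tumor, with 2 (Ctss and Lyz2) called higher in both later groups. In the same order, 8 oligodendrocyte markers summed to 137 to 242, 246 to 719 and 79.6 to 160. Against GCP, 3 of the 8 were called higher in pretumor (1.99% of all genes were) and 1 lower in tumor (3.93%). Between pretumor and tumor, 4 were called lower (0.957%). The sums of 7 markers of meninges and choroid plexus were 1050 to 4200, 5710 to 15000 and 58.7 to 1310. These 7 did not move together in pretumor. Kl and Ptgds were called higher (1.99% of all genes were) and Col3a1 lower (3.25%). Ttr, which gave most of the sum there, had a mean 2.14 above GCP that was not called (adjusted p = 0.544), while the median difference of the 7 was -0.65. The 5 of Purkinje cells and interneurons gave 68.2 to 155, 26.3 to 76.0 and 21.2 to 47.4. Among them Gad1 was called lower in both later groups (3.25% and 3.93% of all genes were). Calb1 was called lower in tumor than in pretumor (0.957%). The 4 of postmitotic granule neurons gave 39.9 to 44.2, 31.4 to 39.6 and 25.9 to 34.8. Of these, Cbln1 was called lower in both later groups, with every group mean in the low band. The part of these signals in the fall of the cholesterol enzymes was not tested.

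On the tumor arrays 1 to 5 the astrocyte and Bergmann glia sum was 1190, 1870, 799, 773 and 440, and the mean deviation of the 10 member probe sets was -0.21, -0.34, 0.30, -0.12 and 0.36. The order of the member values depends on whether probe sets or genes are averaged, so no relation between them is drawn.

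The genes with the profile most like that of the cholesterol enzymes were ranked by the root mean square difference between centred log2 profiles over the 14 arrays, for 2989 genes with a mean of at least 4. The closest were Myt1 (0.14), a zinc finger transcription factor of neural cells, Zwint (0.17), a kinetochore protein, Mtch2 (0.19), a mitochondrial outer membrane protein, Chst2 (0.20), a sulfotransferase, Apc2 (0.20), a relative of the Apc protein, and Rflnb (0.22), a filamin-binding protein. The median gene had 0.55 and the closest 1% had at most 0.28. None of the 6 is an enzyme of the route. The measure counts the size of a step as well as its shape, and the mean of the 8 genes includes Lss, which lay in the low band. A route enzyme with a larger step, such as Msmo1 (-1.49 in pretumor and -2.22 in tumor), therefore counts as less alike for its size. The differences of the 6 closest genes from GCP ran from -0.97 to -0.49 in pretumor and from -1.09 to -0.64 in tumor.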

How the data were processed

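RNA of 14 samples was measured on 1 expression array each. The authors deposited linear intensities, 1 for each probe set on each array. The method of summary and normalisation: not given in the sources used here. Array medians lay between 2.04 and 2.14 on the log2 scale, so the deposited intensities were taken as already normalised. After 66 control probe sets were set aside, values were floored at their 10th percentile (2.45) and taken to log2. All 12422 probe sets were fitted with limma 3.58.1, as 3 group means, in R 4.3.3 (11 residual and 0.83 prior degrees of freedom). P-values are two-sided, Benjamini-Hochberg adjusted over all probe sets, and called under 0.05. The script was tested on simulated data.

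The probe annotation of the array gave the symbols: 10833 probe sets had 1 symbol, 396 several and 1193 none, and only those with 1 were named. Lists use the probe set with the highest mean per gene. Text names every member probe set and the 6 closest profiles. From the pathway and fatty acid lists it names the genes that were called (at most 8 per list, or the highest mean where none was called). Of the cell type markers that were called, only some are named. Other genes, among them Zic1, Atoh1, Fasn, Pax6 and Neurod1, were named after their values were seen, and not all are marked so in place. The members and lists were chosen with earlier results of these data known, as was the limit of 16. Arrays have no read depth, and precision is limited by their number. Alternatives were a pseudocount or floor of 16, quantile normalisation, centring arrays on the median of log2 values above 4, a filter on low probe sets, only the compared groups, a trended robust prior, the replicate number as a block, averaged or left-out GCP arrays, and each array left out in turn.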

Additional observations from a re-analysis of the deposited data

Results flagged for a closer look

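Several values stood apart from the rest of their group, in 6 of 135 groups of 4 or 5 arrays tested on 45 probe sets. Chance marks about 1 in 20 such groups. For Hmgcs1, GCP 2 was the highest of its group at 11.01, the other GCP arrays lying between 10.75 and 10.79. For Nsdhl 98630_at, pretumor 3 was the lowest at 3.71, the others lying between 4.41 and 4.57. Outside the members, pretumor 1 was the lowest of its group for Lbr at 9.02 (others 9.28 to 9.35). Tumor 1 was the highest for Pax6 at 8.90 (others 8.11 to 8.24), and tumor 2 the lowest for Neurod1 at 10.78 (others 11.63 to 11.94). GCP 2 was the highest for Chst2 at 5.37 (others 4.84 to 4.88).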

How the results depend on the processing

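The counts of member probe sets called lower were 7 in pretumor minus GCP, 8 in tumor minus GCP and 0 in tumor minus pretumor. Leaving out each array in turn gave 5 to 8, 8 to 9 and 0. Averaging the GCP arrays in pairs gave 4 and 5, and leaving out GCP 1 and GCP 2, chosen after seeing the data, also gave 4 and 5. Averaging leaves 2 GCP values, and calls over all probe sets then numbered 168 and 198, against 541 and 571. A floor at 16 gave 194, 232 and 32 calls over all probe sets, against 541, 571 and 124. The replicate number as a block gave 7, 8 and 0 members; same-numbered arrays deviated together with correlations of -0.35 to 0.58, and an array correlated best with its own number in 2 of 4, 0 of 4 and 1 of 5 cases, so the numbers were not taken to pair the arrays. Tumor minus pretumor changed sign, uncalled, for Fdft1 (-0.041 with arrays centred on the median of values above 4, -0.0070 without pretumor 3 and tumor 2, -0.018 to 0.067 leaving out 1 array), Nsdhl 93868_at (0.099 without pretumor 3 and tumor 2, -0.11 to 0.077 leaving out 1 array) and Nsdhl 98630_at (-0.26 to 0.058 leaving out 1 array). The calls of Hmgcs1, Fdps 160424_f_at, Fdft1 and Nsdhl 93868_at against GCP held in all 26 alternatives. The cause of the other changes was not tested. With 4 or 5 arrays a group, and Lss and 2 Fdps probe sets in the low band, small differences were not detectable.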
